A study of Mus musculus with 35 samples.

Results

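The data compared motoneurons of SOD1 mice treated with granulocyte-colony stimulating factor (G-CSF) with motoneurons of healthy mice of the same age, and asked which transcripts were still altered under treatment. The comparison used 14 of the 35 arrays of the series, 7 of G-CSF-treated SOD1 mice and 7 of wild type (WT) mice, both of week 15, with every probe set that names 1 gene. The 7 vehicle-treated SOD1 mice of week 15 gave the same values without the drug, and the SOD1 (n = 8) and WT mice (n = 6) of week 11 gave an earlier set of changes from other animals. Each array held the RNA of 1 mouse, taken from 300 motoneurons cut by laser from the lumbar spinal cord. The SOD1 mice were of the strain B6.Cg-Tg(SOD1-G93A)1Gur/J, hemizygous females with a high copy number of the mutant human SOD1 gene, and the WT mice were C57BL/6J, described as littermates. Both groups of SOD1 mice of week 15 carried an osmotic pump under the skin from week 11 on, filled with vehicle alone or with G-CSF (filgrastim) in the same vehicle. No pump is described for the WT mice. The transgene, the pump and the drug therefore cannot be told apart in the comparison of treated SOD1 mice with WT mice.

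SOD1-G93A mice are a model of amyotrophic lateral sclerosis, in which the large motoneurons that drive fast muscle fibres lose their nerve endings first and later die. G-CSF is a growth factor for neutrophil precursors that signals through the receptor Csf3r and the JAK-STAT pathway and can also act on neurons. Neurons under protein stress phosphorylate the translation factor eIF2, which favours translation of the transcription factor Atf4 and its target genes (the integrated stress response), while a neuron whose axon is damaged switches on Atf3 and a set of growth genes.

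The values are log2 intensities, so a difference of 1 is a doubling, and intensities of different probe sets cannot be set against each other. A transcript means a probe set, as in the study. A transcript was called changed at a fold change of 1.5 or more where limma, fitted over all 5 groups, gave a p under 0.05 before and under 0.1 after Benjamini-Hochberg adjustment over all filtered probe sets. The medians of the 14 arrays ran from 3.248 to 3.405. Precision is limited by 7 arrays a group. In dissected cells as in any bulk sample, fewer cells of a type and less RNA per cell cannot be told apart.

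The array of G-CSF-treated mouse 1 stood apart from the others of its group, so results are given with and without it. On a scale where 0 is the WT mean and 1 the mean of the other treated mice, taken over the transcripts called without the mouse in question, treated mouse 1 lay at a median of 0.177 and the other 6 treated mice between 0.612 and 1.03. The 7 WT mice, each left out in the same way, lay between 0.018 and 0.202. Of the 675 transcripts called without treated mouse 1, its own value fell within the range of the WT mice in 58.4%. On most of these transcripts its values thus lay with the WT mice. Of the 318 transcripts called with all mice, it lay within the WT range in 132. In 72 of them, Ddit3 and Map1b included, no treated mouse reached the WT range. The human transgene cannot be read from a mouse array, and whether the label is right was not tested. The mouse was kept as labelled. Some RNA measures also moved with the groups. The 3′ minus the middle probe set of actin, which grows as RNA is shortened, read 3.43 to 3.96 in WT mice, 3.97 to 5.20 in G-CSF-treated mice and 3.59 to 5.40 in vehicle-treated mice. The treated mice lay above all WT mice on this measure, with treated mice 1 and 7 nearest to them. The 18S ribosomal RNA control read 12.70 to 13.50 in WT and 12.27 to 13.25 in treated mice, which overlap. The 3′ minus the 5′ probe set of actin went the other way, with 6.34 to 6.70 in WT and 5.87 to 6.62 in treated mice. The 3′ minus the middle probe set of Gapdh read 3.41 to 4.04 in WT and 3.54 to 4.54 in treated mice. Both of these measures overlap between the groups. The part of RNA quality in the results below was not tested. With the actin 3′ minus middle difference as a covariate (the actin covariate below), 23 of the 63 called probe sets of the genes named here stayed called. The other 40 did not, and none turned its sign. Below, values from that fit are given for the gene lists and for some genes.

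**Figure D1:**
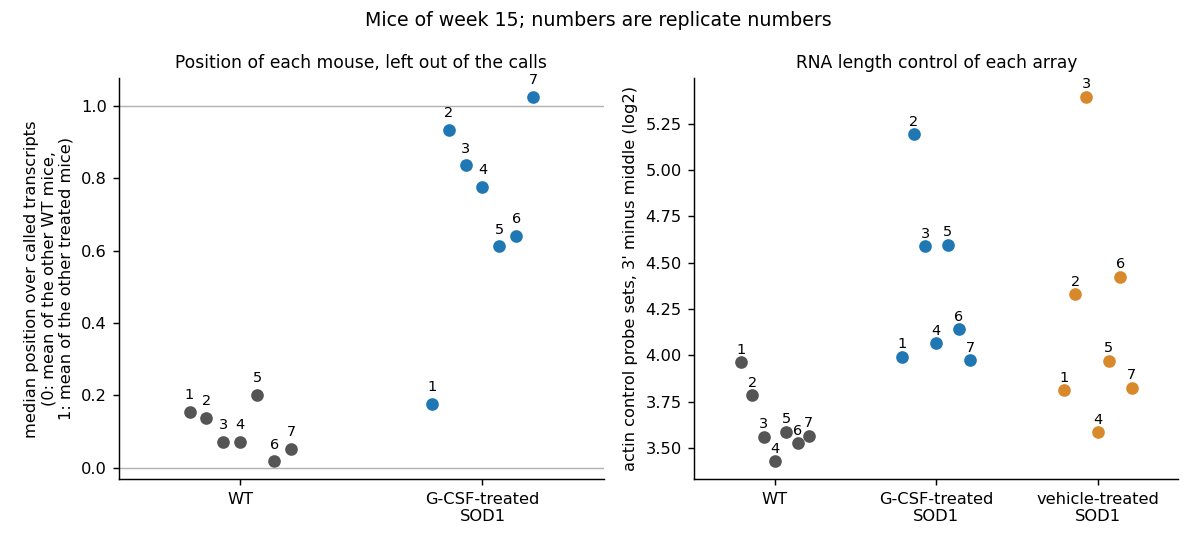
Left panel, position of each WT and each G-CSF-treated mouse (y axis, no unit) on a scale from the WT mean (0) to the mean of the other treated mice (1), as the median over transcripts called without that mouse. Right panel, the actin 3′ minus middle control difference (log2) of every WT, G-CSF-treated and vehicle-treated mouse of week 15, with mouse numbers. Treated mouse 1 sits at 0.177, within the span of the WT mice, and the other treated mice at 0.612 or above. On the right, the treated mice lie above 3.96, the highest WT value.

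Most markers of the dissected cells read over the array median. All 11 measured motoneuron markers lay over the 20th centile of every one of the 14 arrays, and 9 over the median. The exceptions include Chat, the enzyme that makes acetylcholine, whose probe set read near the array median in both groups (mean 3.11 in WT and 3.15 in treated mice). All 12 general neuron markers lay over the median of every array. Markers of other cells did so too, with 9 of 12 astrocyte and 8 of 11 oligodendrocyte markers over the median of every array. The same held for 5 of 7 inhibitory interneuron markers. The 20th centile is a low bar that does not show a marker to be present. In every one of the 14 arrays 10 of 16 microglia and 8 of 12 neutrophil markers also lay over it. The 3 probe sets of mouse Sod1 differed from WT by -0.29, -0.08 and -0.22, with adjusted p between 0.622 and 0.968 in limma, and none was called.

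Of 25589 transcripts tested, 318 were called in G-CSF-treated SOD1 mice against WT, which is 1.24%. They belonged to 290 genes, and the larger part was lower in treated mice. There were 94 higher transcripts (0.367%) of 88 genes and 224 lower ones (0.875%) of 202 genes. An unadjusted p under 0.05 was reached by 3315 transcripts, where 1279 would be expected by chance. The same fit called 1639 transcripts in vehicle-treated SOD1 mice against the same WT mice (6.41%), 428 higher (1.67%) and 1211 lower (4.73%). Both counts rest on the same 7 WT arrays. The direct comparison of G-CSF-treated with vehicle-treated mice called 11 transcripts (0.043%), while 2141 had an unadjusted p under 0.05. The difference between the counts 318 and 1639 was not itself tested.

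Called transcripts did not always separate the mice. In 19 of the 94 higher transcripts all treated mice lay above all WT mice, and in 53 of the 224 lower ones all lay below, so 246 of the 318 overlapped. Over all 25589 transcripts, the treated mice lay wholly above the WT mice in 69 (0.27%) and wholly below in 112 (0.438%). In 81 of the 318 the only treated mouse in or beyond the WT range was mouse 1, in 65 it was one of the other mice alone, and in 100 it was 2 mice or more. Without mouse 1, limma called 675 transcripts, 227 higher and 448 lower, and 309 of the 318 were among them. With the actin covariate it called 66, 42 higher and 24 lower, of which 39 were among the 318. With the planned covariates, actin 3′ minus 5′ and 18S, it called 219 and 293. After quantile normalization of the arrays the calls split into 139 higher and 181 lower. Of the 290 genes, 25 were called at more than 1 probe set, none of them in both directions. For 205 of the 290 genes more than 1 probe set was tested.

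**Figure D2:**
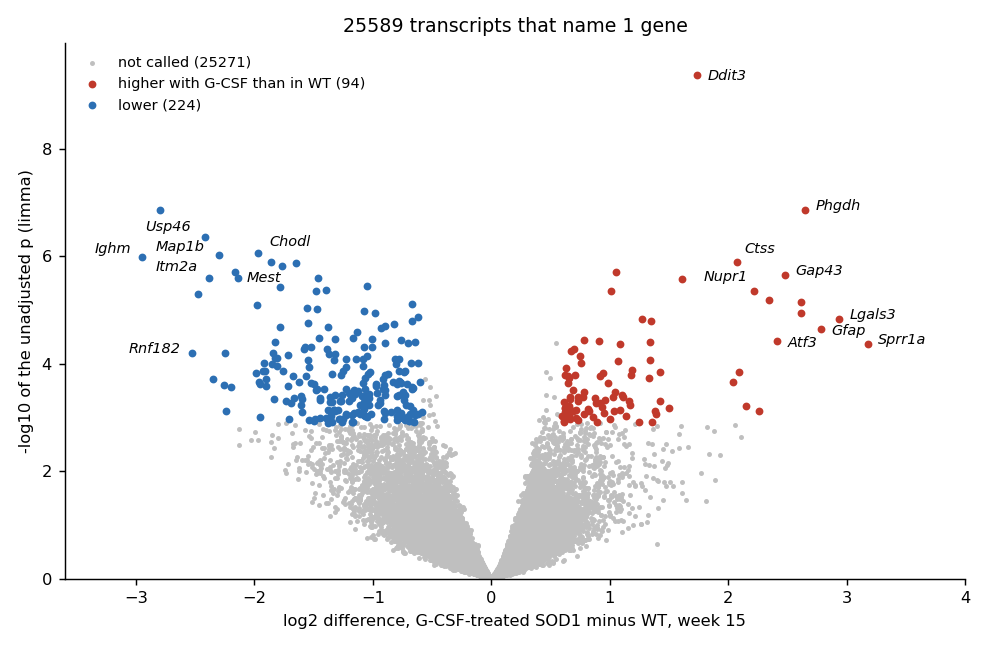
Difference between G-CSF-treated and WT mice (x axis, log2) against the unadjusted limma p (y axis, -log10) for 25589 transcripts. Red points are the 94 called higher and blue points the 224 called lower, and grey points the 25271 not called. The called transcripts reach from -2.95 (Ighm) to +3.18 (Sprr1a), with more of them on the lower side.

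Several stress response genes rose in treated mice. Of 28 measured members of the integrated stress response, 5 rose (Atf4, Ddit3, Chac1, Nupr1 and Fgf21), none fell, and the median difference was 0.33, against 0.00 over all genes. With 1 probe set per gene, 64 of 14257 genes were called higher (0.449%) and 139 lower (0.975%). In vehicle-treated mice 10 members rose and none fell, with a median of 0.45. Without treated mouse 1 the count was 7 (Ndrg1 and Vldlr in addition), and with the actin covariate it was 2.

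Ddit3, which encodes CHOP, a transcription factor made late in this response, separated the groups in every mouse. Its log2 intensity was 5.69 to 6.52 in WT mice (median 6.19) and 7.58 to 8.34 in treated mice (median 7.75). All 7 treated mice, mouse 1 included, lay above all 7 WT mice, and the treated mice lay close together. The difference was +1.74 ± 0.20 (SE, n = 7 mice per group), a 3.33-fold rise with a limma adjusted p of 1.33e-05, the smallest among the genes named here. It stayed at +1.73 with the actin covariate. The vehicle-treated mice gave +1.90, and treated and vehicle-treated mice differed by -0.16 (95% interval -0.57 to 0.25). A second probe set of Ddit3, near the array median, differed from WT by +0.21 and was not called.

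Nupr1, a small nuclear protein made under stress, read 2.83 to 4.32 in WT mice (median 3.52) and 4.53 to 7.25 in treated mice (median 5.52). All treated mice lay above all WT mice, while 3 of the 7 vehicle-treated mice did. The difference from WT was +2.21 ± 0.41 (adjusted p = 0.00504), and a second probe set gave +1.61. In vehicle-treated mice the first probe set rose by 1.63, and the direct difference of +0.58 between the treatments had an adjusted p of 0.74. Chac1, an enzyme that breaks down glutathione, rose by 0.73 (adjusted p = 0.0579), Atf4 by 0.69 (0.0799) and the secreted hormone Fgf21 by 1.24 (0.0999). None of these was called with the actin covariate, where Atf4 differed by +0.29. In these last genes treated mouse 1 lay within the WT range and the other 6 mice lay above it. Among members that were not called, Ndrg1 differed by +0.85, Trib3, a kinase-like brake on the response, by +0.59 and Asns, asparagine synthetase, by +0.15.

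The promoters of the called stress and injury genes are shown because these members moved together. RefSeq windows of 250 bases before to 50 bases after the gene start (GRCm38.p6) were searched for 8 of the 10 members called at any probe set. These were Atf3, Atf4, Chac1, Ddit3, Fgf21, Nupr1, Sprr1a and Vldlr, and not Gap43 and Tubb6. The search left out windows not of full length and all windows of a single chromosome, for the members and for all genes. The letters TGATGNAAN, the element bound by Atf4 with C/EBP factors, were searched on both strands and were found in 5 of the 8 (62.5%), and in 1215 of all 27025 genes with a window (4.5%). All 5 matches lay on the strand opposite to the gene. In the lines below the capitals mark the matching letters, read 5′ to 3′ on the strand of the gene.
Atf3, chr1:191183426-191183454, minus strand: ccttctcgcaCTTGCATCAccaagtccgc
Chac1, chr2:119351038-119351066, plus strand: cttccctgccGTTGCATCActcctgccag
Fgf21, chr7:45615612-45615640, minus strand: agacccccccATTGCATCAtccgtccagg
Nupr1, chr7:126625563-126625591, minus strand: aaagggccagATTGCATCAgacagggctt
Vldlr, chr19:27216809-27216837, plus strand: agcagcaataGTTGCATCAgcgctcctag
The letters TGAGTCA, bound by AP-1 factors, were found in 2 of the 8 (25%) and in 1607 of all genes (5.95%). The matches are shown for Ddit3 and, at 2 places, for Sprr1a.
Ddit3, chr10:127290543-127290567, plus strand: cgcgcgcaTGACTCActcacctcct
Sprr1a, chr3:92486011-92486037, minus strand: taactaaagcTGAGTCAgagggtgaac
Sprr1a, chr3:92485981-92486007, minus strand: gggaggagggTGAGTCAtaggtgactg
The letters TGACGTCA, bound by CREB and ATF factors, were found in 0 of the 8 and in 549 of all genes (2.03%). A match describes the letters of the window and is not a site, and these genes were chosen because they were called. They also come from lists that hold known Atf4 targets, so their share of the Atf4 element is no result of these arrays. The shares in members that were not called are not given.

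Serine is made from a glycolytic intermediate by Phgdh, Psat1 and Psph, and Shmt2 turns it into glycine in mitochondria. Of 14 measured genes of serine, glycine and amino acid synthesis, 3 rose (Phgdh, Psat1 and Shmt2) and none fell, with a median of 0.29. The count was 3 with a median of 0.47 in vehicle-treated mice, 4 without treated mouse 1 and 2 with the actin covariate. Phgdh read 5.41 to 6.27 in WT mice (median 5.88) and 5.57 to 9.56 in treated mice (median 8.83). Treated mouse 1 lay at the lower end, among the WT mice, and the other 6 lay well above. The difference was +2.65 ± 0.40 (6.27-fold, adjusted p = 0.0011), and +3.14 without mouse 1. Of its 4 probe sets, 3 were called. Psat1 rose by 0.91 ± 0.19 (adjusted p = 0.0189) and Shmt2, at 1 of 4 probe sets, by 1.34 ± 0.28 (0.0189), again in 6 of 7 mice above the WT range. The related enzyme Psph differed by +0.35 and was not called. None of 13 amino acid transporters and 1 of 19 aminoacyl-tRNA synthetases (Iars, +0.61, adjusted p = 0.0631) was called.

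A few genes of damaged and regrowing axons rose in treated mice, with a wide spread between mice. Of 32 measured axon regeneration effectors, 3 rose (Sprr1a, Gap43 and Tubb6) and none fell, with a median of 0.70. In vehicle-treated mice 14 rose, with a median of 0.92. Without treated mouse 1 the count was 9 higher and 1 lower (Basp1), and with the actin covariate 2 higher. Of 13 axon injury transcription factors, Atf3 alone rose, and 3 did in vehicle-treated mice. Without treated mouse 1 the count was 3 (Sox11 and Csrnp1 in addition). No member of either list other than Npy was called between G-CSF and vehicle.

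Atf3 read 2.37 to 3.81 in WT mice (median 3.30) and 2.89 to 7.21 in treated mice (median 5.77). Mouse 1 alone lay within the WT range. The difference was +2.41 ± 0.51 (5.32-fold, adjusted p = 0.0189). In vehicle-treated mice it was +3.32, and the direct difference between the treatments, -0.91, had an adjusted p of 0.66. Sprr1a, a small proline-rich protein that injured neurons make, read 2.54 to 3.55 in WT mice (median 2.85) and 2.97 to 7.66 in treated mice (median 6.99). The rise of 3.18 ± 0.68 (9.04-fold, adjusted p = 0.0195) was the largest of all called transcripts, and 6 of 7 treated mice lay above the WT range. It was +4.36 in vehicle-treated mice and +3.69 without mouse 1. Its WT values lie near the dim end of the array, where GCRMA compresses differences, so the fold is hard to size. The calls of Atf3 and Gap43 were kept with the actin covariate and that of Sprr1a was not (+3.18, adjusted p = 0.128).

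Gap43, a membrane protein of growth cones, read 3.68 to 5.50 in WT mice (median 4.79) and 5.47 to 8.05 in treated mice (median 7.62). Only mouse 1 reached into the WT range, at its very top. The difference was +2.48 ± 0.43 (adjusted p = 0.00393) and +3.16 in vehicle-treated mice. Tubb6, a beta tubulin, rose by 1.39 (adjusted p = 0.0854). Adcyap1, which encodes the neuropeptide PACAP, differed by +2.06 (adjusted p = 0.104) and Cd44, a hyaluronan receptor, by +1.83 (0.162), and both were not called with all mice and were called without mouse 1. None of 24 measured neuropeptides and granins was called, against 6 higher and 1 lower in vehicle-treated mice.

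**Figure D3:**
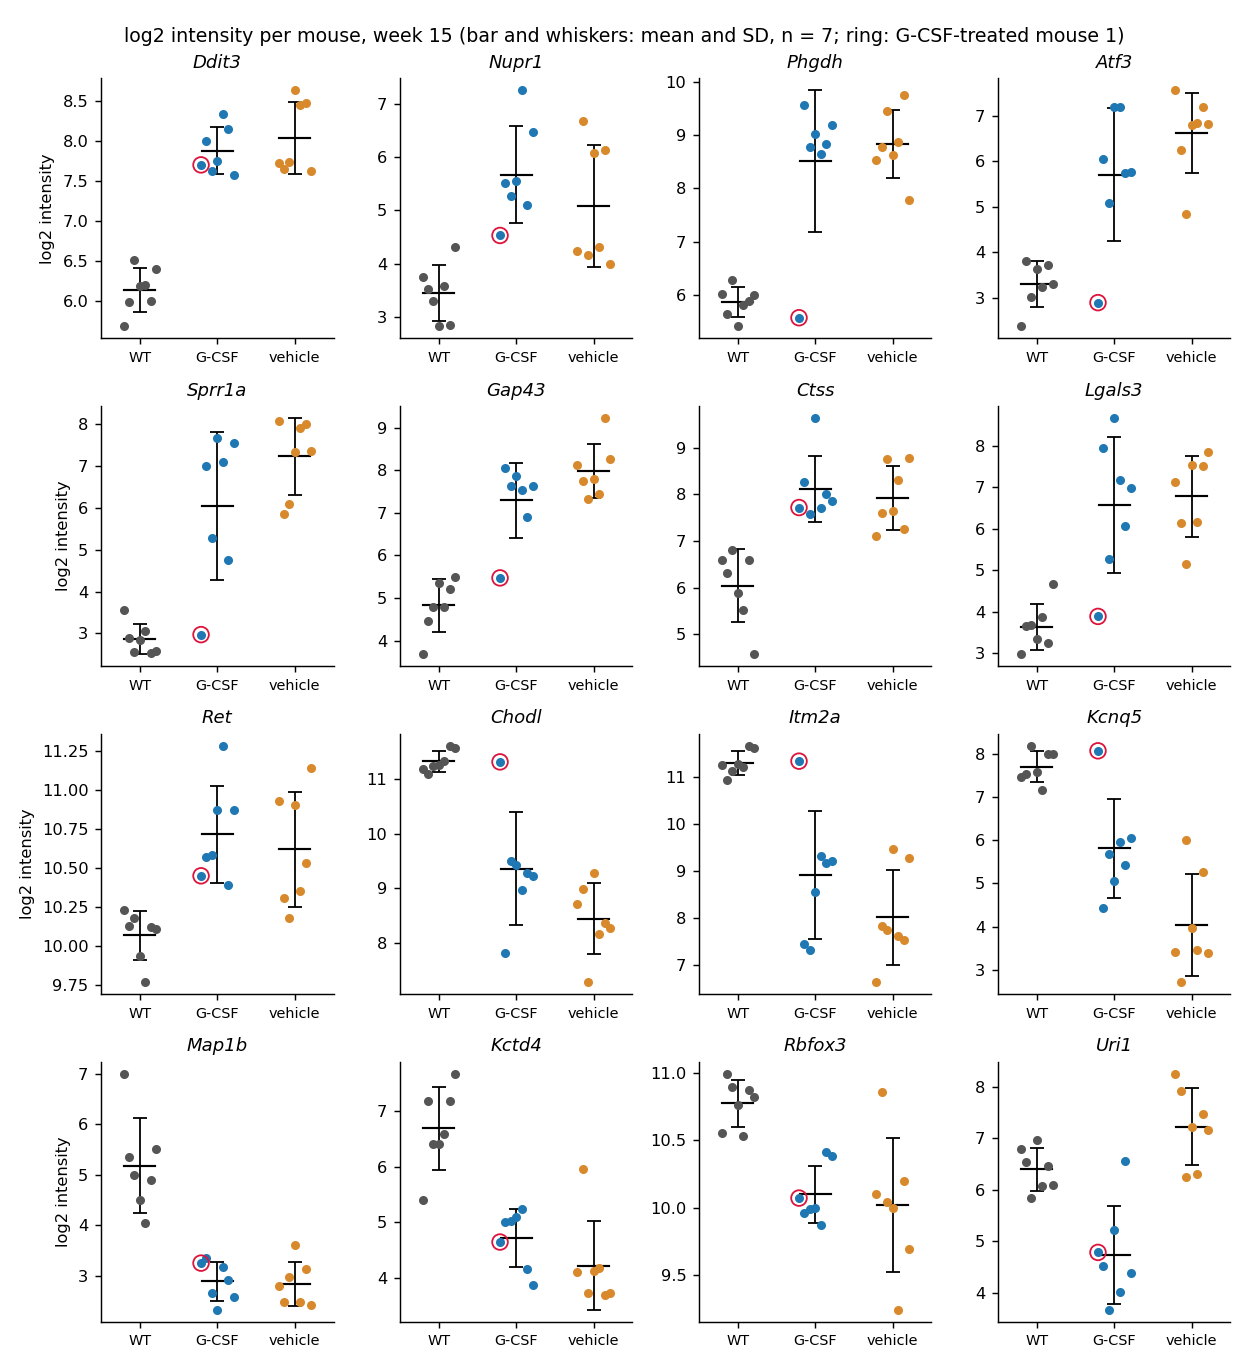
Log2 intensity (y axis) of 16 genes in each WT, G-CSF-treated and vehicle-treated mouse of week 15 (points), with the group mean and SD (bars) and treated mouse 1 ringed in red. Ddit3, Nupr1, Ctss and Ret lie higher in all treated mice than in all WT mice and Map1b, Kctd4 and Rbfox3 lower. In Phgdh, Atf3, Sprr1a, Chodl, Itm2a and Kcnq5 the ringed mouse lies with the WT mice.

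A few genes of microglia and activated phagocytes rose in treated mice. Of 14 measured microglia markers 2 rose (Ctss and Tyrobp), none fell, and the median was 0.58. In vehicle-treated mice 6 rose. The mean over the markers was 3.80 to 5.94 in treated mice (median 4.49), 3.56 to 4.07 in WT mice (median 3.90) and 4.14 to 5.53 in vehicle-treated mice (median 4.76). Several defining markers stayed at a low level in both groups, among them Aif1 (mean 2.16 in WT and 2.15 in treated mice), Tmem119 (3.47 and 3.44) and Trem2 (3.80 and 3.82). Of 25 disease-associated phagocyte genes 3 rose (Lgals3, Tyrobp and Ctss), with a median of 0.54, against 10 in vehicle-treated mice. Without treated mouse 1 the counts were 4 and 6, and with the actin covariate 1 and 2. Ctss and Tyrobp stand in both lists.

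Ctss, the cathepsin of microglia and macrophages, read 4.57 to 6.80 in WT mice (median 6.32) and 7.59 to 9.64 in treated mice (median 7.86). All treated mice lay above all WT mice, as did all 7 vehicle-treated mice, and treated mouse 4 lay far above the rest. The difference was +2.07 ± 0.35 (4.2-fold, adjusted p = 0.00326), and +1.89 in vehicle-treated mice. Ly86, a surface protein of B cells and myeloid cells, read 4.30 to 4.70 in WT and 5.44 to 9.08 in treated mice, which do not overlap, and rose by 2.61 (adjusted p = 0.00707). Lgals3, the lectin galectin-3, rose by 2.94 ± 0.58 (adjusted p = 0.011), from a WT median of 3.67 to a treated median of 6.99. Complement C1qb rose by 2.61 at 1 of 3 probe sets, and Tyrobp, an adaptor of microglial receptors, by 2.26 with mouse 1 below the WT mice. Of 9 complement genes none rose, since C1qb was counted at its brightest probe set (+1.40, not called), and Cd55, which shields cells from complement, fell by 1.37 (adjusted p = 0.0242). The calls of Ly86, Tyrobp and Cd55 were lost with the actin covariate (adjusted p 0.107, 0.212 and 0.341).

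Gfap, the intermediate filament of reactive astrocytes, was the only one of 12 astrocyte markers to rise, and the median of the markers was -0.31. It read 3.48 to 6.24 in WT mice (median 4.58) and 5.48 to 8.87 in treated mice (median 7.99). The groups overlapped through treated mouse 1. The difference was +2.78 ± 0.57 (adjusted p = 0.0139) at 1 of 3 probe sets and +3.70 in vehicle-treated mice. The mean over the astrocyte markers was 6.32 to 7.16 in treated and 6.42 to 7.37 in WT mice. Vim, another intermediate filament of reactive cells, rose by 2.04 (adjusted p = 0.0431) and was not called with the actin covariate (+1.32, adjusted p = 0.437). None of 11 oligodendrocyte markers was called, and their mean was 6.47 to 8.01 in treated and 7.54 to 7.87 in WT mice. The part of glial RNA in these results was not tested.

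Genes of the drug's own pathway were not called. Csf3r, the receptor of G-CSF, read 2.78 to 3.06 in WT mice and 2.86 to 3.29 in treated mice, near the array median, a difference of +0.18 (95% interval -0.07 to 0.43, adjusted p = 0.577). None of 28 genes of the receptor and JAK-STAT pathway was called, with a median of 0.02. The largest difference, +1.45 in the feedback inhibitor Socs3, had a limma adjusted p of 0.343. Another probe set of Socs3 gave +1.36 (adjusted p = 0.137). In vehicle-treated mice the Socs3 probe sets gave +1.6 and +1.2. None of 8 measured neutrophil markers was called. Among 31 trophic factors and receptors, 2 rose, Fgf21 and Ret. Ret, the signalling receptor for GDNF, read 9.77 to 10.23 in WT mice (median 10.12) and 10.39 to 11.28 in treated mice (median 10.58), with every treated mouse above every WT mouse. The rise was small and even, +0.65 ± 0.15 (1.57-fold, adjusted p = 0.0368) at 1 of 2 probe sets, and +0.55 in vehicle-treated mice.

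Several markers of motoneuron subtypes fell in treated mice. Of 12 measured subtype markers 4 fell (Chodl, Mmp9, Kcnq5 and Rbfox3), none rose, and the median was -0.39, against 5 lower and 1 higher in vehicle-treated mice. The count of 4 was the same without treated mouse 1 and was 0 with the actin covariate, which gave -1.23 for Chodl, -0.97 for Mmp9, -1.96 for Kcnq5 and -0.68 for Rbfox3. Chodl, a lectin that marks fast motoneurons, read 11.09 to 11.61 in WT mice (median 11.26) and 7.82 to 11.32 in treated mice (median 9.28). Treated mouse 1 lay in the middle of the WT mice and the other 6 lay below them all. The fall was -1.97 ± 0.33 (3.91-fold, adjusted p = 0.00326), -2.29 without mouse 1 and -2.89 in vehicle-treated mice. Mmp9, a protease found in the most vulnerable motoneurons, fell by 1.23 (adjusted p = 0.0327). Rbfox3, the neuronal protein NeuN, read 10.53 to 10.99 in WT and 9.87 to 10.41 in treated mice, and every treated mouse lay below every WT mouse (-0.68 ± 0.15, adjusted p = 0.0294). Of 13 motoneuron identity factors, Lhx4, a LIM homeobox factor, fell by 1.32 (adjusted p = 0.0806). Its call was lost after quantile normalization and with the actin covariate. In the separate list of 11 motoneuron markers 2 fell (Chodl and Mmp9) and 1 rose (Ret), with a median of -0.48. In vehicle-treated mice 2 of these fell and 0 rose, and with the actin covariate 1 was higher and 0 lower. Of 12 general neuron markers Rbfox3 alone fell, with a median of -0.44. Without treated mouse 1, 3 fell (Nefm and Map2 in addition), and with the actin covariate none did, with a median of +0.08.

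Channels and their partners were among the lower transcripts. Of 27 measured members of the potassium channel list 2 fell and none rose, against 7 lower in vehicle-treated mice. These were the channel subunit Kcnq5 and Kctd4, which is not itself a channel subunit. Kcnq5, a subunit of the M-type potassium channel, read 7.18 to 8.19 in WT mice (median 7.59) and 4.43 to 8.08 in treated mice (median 5.68). Mouse 1 lay with the WT mice. The difference was -1.90 ± 0.47 (adjusted p = 0.0463), against -3.69 in vehicle-treated mice, and the direct difference between the treatments, +1.79, had an adjusted p of 0.23. Kctd4, of a family of channel-like tetramerisation domain proteins, read 5.39 to 7.67 in WT and 3.86 to 5.23 in treated mice, which do not overlap, and fell by 1.98 ± 0.38 (adjusted p = 0.00763) with both probe sets called. Kctd8, an auxiliary subunit of the GABA-B receptor, fell by 1.86 (adjusted p = 0.00326) with no overlap, at 1 of 2 probe sets. Pex5l, which binds HCN channels, fell by 1.77 (0.00337) with 3 of 4 probe sets called. Of 21 sodium, calcium and HCN channel genes 2 fell, the T-type channel Cacna1h (-1.16, adjusted p = 0.0188) and the calcium channel subunit Cacna2d2 (-0.78, 0.0907). Vehicle-treated mice gave -0.23 for Cacna2d2, and the direct difference of -0.55 had an adjusted p of 0.48. After quantile normalization the count for this list was 1, and without treated mouse 1 it was 3 lower and 1 higher. With the actin covariate the potassium channel list gave 1 lower member, Kctd4, and the other list none. Kctd4 and Pex5l stayed called in that fit, while Kcnq5 (-1.96, adjusted p = 0.187), Kctd8 (-1.24, 0.149), Cacna1h (-1.03, 0.181) and Cacna2d2 (-0.83, 0.247) were not.

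Several of the largest falls came from genes of different roles. Ighm, the heavy chain of immunoglobulin M, was the most lowered, from 6.23 to 7.79 in WT mice (median 7.19) to a median of 3.70 in treated mice. Treated mouse 1, at 7.84, lay above all WT mice and the other 6 lay below them all. The difference was -2.95 ± 0.50 (adjusted p = 0.00326), and a second probe set fell by 2.79. The other 2 probe sets of Ighm and the 2 other lymphocyte markers measured were not called. Itm2a, an integral membrane protein, read 10.93 to 11.65 in WT mice (median 11.24) and 7.32 to 11.33 in treated mice (median 9.17), and fell by 2.38 ± 0.42 (adjusted p = 0.00393) with both probe sets called, against 3.27 in vehicle-treated mice. Again mouse 1 alone stayed in the WT range. In Mest, an imprinted gene that fell by 2.16 (adjusted p = 0.00377), mouse 1 alone stayed in the WT range too. Prima1, the membrane anchor of acetylcholinesterase, fell by 1.96 (0.0431) as the only called member of 11 genes of cholinergic transmission with all mice. Without treated mouse 1 that list gave 2 lower members (Chrna7 in addition) and 1 higher (Chrnb2). With the actin covariate the call of the first Ighm probe set was lost (adjusted p = 0.103) and that of the second was kept, the calls of Itm2a and Mest were lost, and the list of cholinergic genes gave 1 higher member and no lower one.

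Some other falls included treated mouse 1. Map1b, a microtubule-associated protein of axons, read 4.04 to 7.00 in WT mice (median 4.99) and 2.32 to 3.35 in treated mice (median 2.91). All treated and all vehicle-treated mice lay below all WT mice. The difference was -2.29 ± 0.38 (adjusted p = 0.00326), and the other 2 probe sets of the gene, at -0.57 and -0.83, were not called. Rnf182, a ubiquitin ligase, fell by 2.53 (adjusted p = 0.024) and Wdr47, a neuronal microtubule-linked protein, by 1.65 (0.00326), in both cases with no overlap and at 1 of 2 probe sets. Usp46, a deubiquitinase, fell by 2.41 ± 0.39 (0.00272) at 1 of 2 probe sets, from a WT median of 7.91 to a treated median of 4.55, with mouse 5 in the WT range. Grasp, a scaffold of glutamate receptors, fell by 2.48 (0.00555) at 1 of 2 probe sets. The falls of Map1b, Wdr47, Rnf182, Usp46 and Grasp were called with the actin covariate too. Further large falls were those of the protocadherin Pcdh11x (-2.25), the mRNA cleavage factor Cpsf2 (-2.25), the kinase Rps6ka6 (-2.24), the RNA polymerase subunit Polr3g (-2.19) and the uncharacterised transcripts A930009L07Rik (-2.35) and 2310067E19Rik (-1.98), with adjusted p between 0.024 and 0.0799. Of these, Pcdh11x, Rps6ka6 and 2310067E19Rik were called at 1 of 2 probe sets. The other probe sets of Cpsf2, at +0.21 and -0.59, were not called. Treated mouse 1 lay within the WT range for Rps6ka6, Polr3g and A930009L07Rik. With the actin covariate these 6 falls were not called (adjusted p 0.257 to 0.615), and that of Polr3g was -0.92. Among 35 axon guidance and adhesion genes the ligand Sema3d (-1.85), the cadherin Cdh8 (-1.36) and the receptor Nrp2 (-1.07) fell and none rose, while quantile normalization gave 2 lower and 1 higher and the actin covariate 1 lower. For Nrp2 mouse 1 lay within the WT range.

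Cholesterol is made from acetyl-CoA by a chain of enzymes that rise and fall together under the factor SREBP2. Of 19 measured members 3 fell (Hmgcs1, Sqle and Hsd17b7), none rose, and the median was -0.51. In vehicle-treated mice 4 fell, with a median of -0.28. The count was 5 without treated mouse 1 (Cyp51 and Tm7sf2 in addition), 4 after centring the arrays on their medians and 0 with the actin covariate. Hmgcs1, which makes the first committed precursor, read 10.13 to 10.53 in WT mice (median 10.24) and 8.42 to 10.02 in treated mice (median 9.76). All treated mice lay below all WT mice, as did all vehicle-treated mice. The difference was -0.71 ± 0.17 (adjusted p = 0.0444) and 2 of 4 probe sets were called. Sqle, the squalene epoxidase, fell by 0.78 (0.0267) and Hsd17b7 by 1.08 (0.0267). Gclm, the regulatory subunit of the enzyme that starts glutathione synthesis, fell by 1.16 (0.0503) as the only called member of 24 redox and metal genes, and with the actin covariate it differed by -0.39 (0.679) and none was called. Slc2a1, the glucose transporter GLUT1, rose by 0.67 (0.0222) as the only called member of 17 glycolysis genes. The glycolysis count was 2 without treated mouse 1 and 0 with the actin covariate. In the lysosome list Ctss, the carboxypeptidase Scpep1 (+0.67) and the protease inhibitor Cstb (+0.69) rose, 3 of 27, and none fell. With the actin covariate 1 member was called and Scpep1 differed by +0.32. Outside the lists, 2 further genes were among the largest rises. Adcy7, an adenylate cyclase, rose by 2.09 (0.0359) at only 1 of its probe sets and was called with the actin covariate too (+2.58). Lhfpl2, a membrane protein, rose by 2.15 (0.0697) and was not called there (+1.72).

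Among 7 measured markers of inhibitory interneurons, Slc32a1, the vesicular transporter of GABA and glycine, rose by 0.95 ± 0.26 (adjusted p = 0.0828), none fell, and the median was 0.87. It read 7.83 to 8.61 in WT mice (median 8.13) and 7.90 to 9.88 in treated mice (median 9.32), with mouse 1 in the WT range and the other 6 above it. The count was 4 without treated mouse 1, 3 after quantile normalization, and 0 after centring the arrays or with the actin covariate, where Slc32a1 differed by +0.95 (adjusted p = 0.272). The glycine transporter Slc6a5 (+1.00), Gad1 (+1.49) and Pvalb (+0.87) were not called with all mice. In vehicle-treated mice Slc32a1 differed by +0.69 and was not called.

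**Figure D4:**
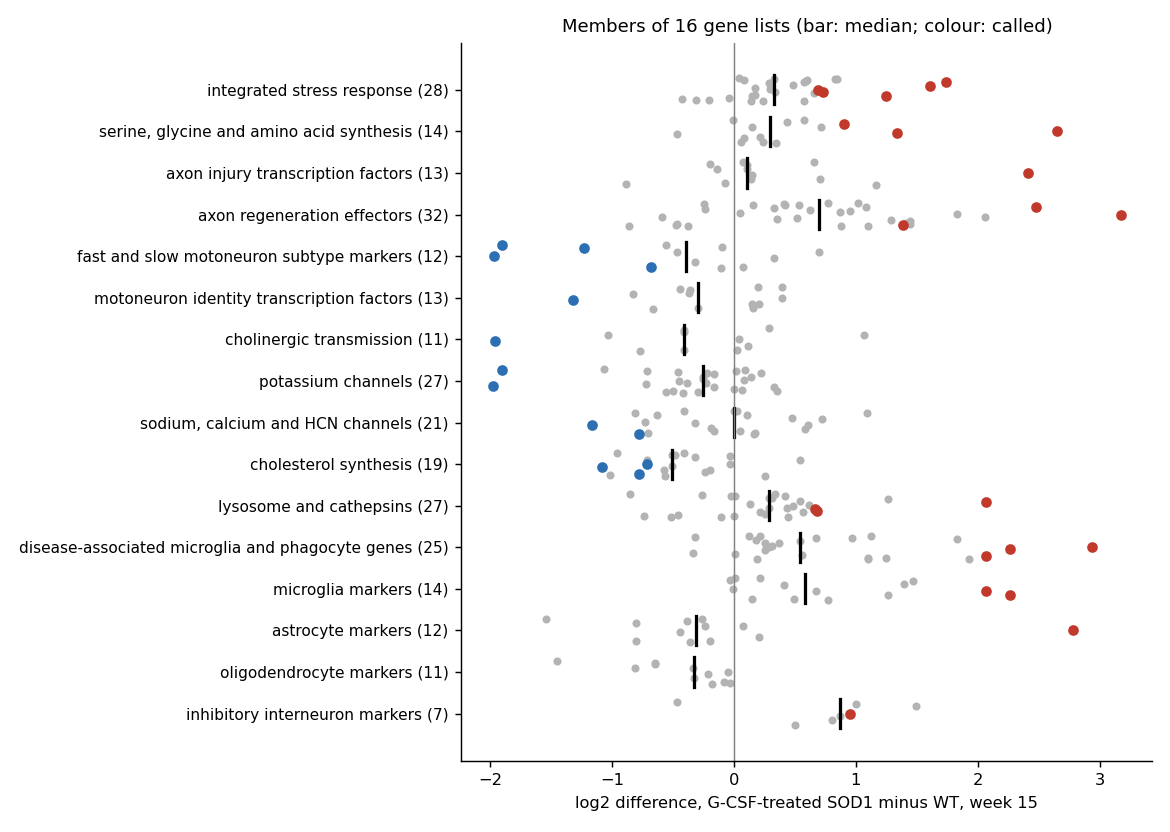
Log2 differences between G-CSF-treated and WT mice (x axis) of the members of 16 gene lists (rows), 1 point per gene, coloured where the gene was called, with a bar at the list's median. Called members are higher in the integrated stress response (5 of 28), serine synthesis (3 of 14) and axon regeneration (3 of 32) and lower in the subtype markers (4 of 12) and cholesterol synthesis (3 of 19).

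Many lists held no called member with all mice, where each gene was counted at its brightest probe set. These were the 45 genes of oxidative phosphorylation, the heat shock and ER chaperones (30 genes), the proteasome, autophagy, ubiquitin enzymes, motors, synaptic vesicle genes, glutamate and GABA receptors, ribosomal proteins, the spliceosome, RNA-binding proteins linked to ALS, nuclear pore, apoptosis, immediate early, clock and interferon genes. Counting every probe set, 1 member each was called lower among the chaperones, autophagy, motors, synaptic vesicle, GABA receptor and nuclear pore genes. Among the ribosomal proteins 1 member was then called higher. For the chaperones, at the brightest probe sets, the largest difference was -0.97 in Bag3, a co-chaperone of Hsp70. It lay below all WT mice in all 7 treated mice but had an adjusted p of 0.156.

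The treated mice differed from vehicle-treated mice in few of the genes named here. Uri1, a prefoldin-like protein, read 5.84 to 6.96 in WT mice (median 6.46) and 3.66 to 6.55 in treated mice (median 4.51). Treated mouse 6 was the only one within the WT range. It fell by 1.66 ± 0.43 against WT (adjusted p = 0.058) and differed from vehicle-treated mice by -2.49 (adjusted p = 0.0214), since these lay above WT by 0.83 (not called). Its difference from WT was -0.98 and not called with the actin covariate. Its second probe set was at +0.49 against WT and was not called. Usp46 also lay lower than in vehicle-treated mice (-1.68), but that difference had an adjusted p of 0.16. For Atf3 the 95% interval of the direct difference was -1.94 to 0.13 and for Chodl 0.26 to 1.59, the latter with an adjusted p of 0.42 over all transcripts. A missed threshold does not show that the treatments acted alike.

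Some genes that the study names were not called between treated and WT mice although they were called in vehicle-treated mice. Npy, a neuropeptide of injured neurons, differed by +0.05 in treated mice (95% interval -0.67 to 0.77) and by +2.05 in vehicle-treated mice, and the direct difference of -2.00 had an adjusted p of 0.0247. Phex, a membrane endopeptidase, differed by -0.01 and +2.10, with a direct difference of -2.11 (adjusted p = 0.0555). The Phex values of WT and treated mice all lay below the 20th centile of all intensities, so this difference is hard to size. Cnot10, of the CCR4-NOT deadenylase complex, differed by -0.21 and +0.99, with a direct difference of -1.20 (adjusted p = 0.00256). For others the direct difference missed the threshold. Prss12, the synaptic protease neurotrypsin, differed by -1.12 in treated mice (95% interval -1.81 to -0.43, adjusted p = 0.126) and by -2.04 in vehicle-treated mice, and without treated mouse 1 it was called at -1.34. Ctsb (+0.46 and +1.24), Bmpr1a (-0.31 and -1.65) and Larp4 (-0.63 and -2.36) were not called in treated mice. For these genes and Cnot10 the values are from the probe set the study lists, and other probe sets differed less between treatments or otherwise. The brightest probe set of Ctsb gave +0.31 in treated and +0.28 in vehicle-treated mice, and that of Bmpr1a -0.01 and -0.41. Other Larp4 probe sets gave -0.38 and -1.08, and -1.12 and -0.30. The other Cnot10 probe sets gave +0.20 to +0.41 in vehicle-treated mice. The study chose these genes on the same arrays, so the array values are not independent evidence. It also measured Cnot10, Ctsb, Prss12 and Bmpr1a by quantitative PCR, with RNA used for the arrays. It describes those values as very like the array values, with the effect on Bmpr1a not significant.

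The SOD1 and WT mice of week 11 share no array with this comparison. Both comparisons come from the same fit, with a shared estimate of spread for each transcript, so their calls are not fully independent. There 370 transcripts were called (1.45%), 323 higher and 47 lower. Of the 323, 21 were called higher in treated mice of week 15 (6.50% of the 323 and 22.3% of the 94), 4 were called lower, and the median difference over all 323 was -0.04. Of the 47, 5 were called lower (10.6% of the 47 and 2.23% of the 224) and none higher. The transcripts called higher in both belonged to 18 genes, among them the stress genes Atf4, Ddit3, Chac1, Nupr1, Fgf21 and Vldlr, the serine enzymes Phgdh, Psat1 and Shmt2, the injury genes Atf3 and Sprr1a, and Gfap, Lgals3, Cstb and Scpep1. Those lower in both included Ighm. Ddit3 was higher by 1.74 at both ages, Phgdh by 3.05 at week 11 and Sprr1a by 3.78. Ctss and Ly86, at +0.03 and +0.62, were not called at week 11, nor were the falls of Chodl (-1.11) and Itm2a (-1.38). The study, by its own test, listed Chodl and Itm2a as lower at both ages. Age goes with cohort and with the pump, so these differences between weeks were not tested.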

How the data were processed

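The authors hybridized the amplified RNA to Affymetrix mouse genome arrays and applied GCRMA with the Expression Console software, whose version is not given in the sources used here. As deposited, each value is a log2 intensity of 1 probe set on 1 array. The table holds 45101 probe sets and 35 arrays, with no filter and 1 array per mouse. Of the probe sets, 34958 name 1 gene in the platform annotation, 932 several and 9211 none. Following the study's methods, probe sets were kept with an intensity over the 20th centile (2.40) on at least 4 arrays and an SD of at least the 30th centile (0.241), which left 31352, of them 25589 with 1 gene (14257 genes). limma 3.58.1 in R 4.3.3 was fitted with a mean for each of the 5 groups (prior degrees of freedom 3.54), and p-values were adjusted by Benjamini-Hochberg within each contrast. Simulated data with known changes were used to test this step. Pathway and marker lists count each gene at its probe set with the highest mean over all arrays.

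The comparison, the gene lists and the rules for naming genes were chosen with earlier results of these data known. Named were the 15 largest rises and the 15 largest falls among called genes, the 10 smallest p, genes called against both WT and vehicle, called list members (for lists with none, the member with the largest difference, of which some are given), Sod1, Csf3r and the genes the study names, of which 1 is not reported here. Alternatives changed the filter, scaling, thresholds, test, samples and covariates. The actin 3′ minus middle covariate and the list counts without treated mouse 1 or under other scalings were added after the data had been seen. Promoter windows were from RefSeq (GRCm38.p6). Python 3.11.15 with pandas 2.3.3 and matplotlib 3.10.9 made the tables and figures.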

Additional observations from a re-analysis of the deposited data

Results flagged for a closer look

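Among 92 groups of 7 mice tested for a single stray value (46 probe sets in 2 groups), 5 held one, and chance gives about 1 in 20. Treated mouse 1 gave 2 of them. Its Ighm value of 7.84 was the highest of the treated mice and its Phgdh value of 5.57 the lowest. Treated mouse 4 had the highest Ctss value (9.64), treated mouse 6 the highest Ctsb value (7.73) and WT mouse 4 the lowest value of a Sod1 probe set (5.52).

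For 4 named genes, treated and vehicle-treated SOD1 mice, both set against the same WT mice, differed in the direct limma comparison. The differences were -1.20 for Cnot10, -2.00 for Npy, -2.11 for Phex and -2.49 for Uri1, each lower in treated mice. Uri1 alone of these was also called against WT, at 1 of its 2 probe sets.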

How the results depend on the processing

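The count of 318 (94 higher, 224 lower) depended on the fit, and the cause was not tested. It was 690 (200 and 490) with the methods' ANOVA and Tukey's comparison over 5 groups, 137 (43 and 94) with limma on the 3 groups of week 15, 722 (215 and 507) with array weights, 162 (42 and 120) at an adjusted p under 0.05, 66 (42 and 24) with the actin 3′ minus middle covariate and 825 (207 and 618) without 3 arrays that stand apart in other groups. With the replicate block on the 3 groups of week 15 it was 77 (27 and 50), but same-numbered treated and WT mice shared no deviations (correlations -0.21 to 0.045, none over 0.1), so the numbers pair nothing. Leaving out 1 mouse gave 187 to 675 called transcripts, 53 to 227 higher and 134 to 448 lower. The extremes came without treated mouse 7 and without treated mouse 1, and counts of 212, 203 and 209 without treated mouse 2, WT mouse 6 and WT mouse 7 were also lower by 1.5 times or more. The planned covariates gave 64 higher and 155 lower for actin 3′ minus 5′, and 79 and 214 for 18S. Quantile normalization gave 139 higher and 181 lower, and centring the arrays 74 and 263. Of 1797 alternative values of named genes, 1565 stayed on the same side of the threshold (some uncalled ones with another sign), 195 lost the call, 37 gained it and 0 reversed a called direction. Of the 63 called named probe sets, all were called without treated mouse 1 and 23 with the actin covariate.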

Other observations

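Some called genes belong to families that no list held, and were picked after their values were seen. Of the 4 nuclear factor I genes, transcription factors of glia and neurons, Nfia fell by 1.69 (limma adjusted p = 0.063) and Nfib by 1.72 (0.025). Of 8 measured protein kinase C genes, Prkcb fell by 1.56 (0.0086) and Prkca by 1.32 (0.056). The lipid droplet proteins Plin2 and Plin5 rose by 1.04 (0.080) and 1.35 (0.09998), the latter against -0.10 in vehicle-treated mice, with a direct difference at an adjusted p of 0.23. Of the Wnt-enhancing R-spondins, Rspo1 rose by 1.42 (0.062) and Rspo2 fell by 1.34 (0.037). Each gene is given at its probe set with the largest difference. Nfia was also called at -0.75, and not at -1.455 and -0.43. Other probe sets of Nfib (-0.42 to -1.265), Prkca (+0.25 and +0.16), Prkcb (-0.01 and -0.84) and Plin5 (+0.47) were not called. Values with the actin covariate or without treated mouse 1 are not given for these genes.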
